A study of Mus musculus with 13 samples.

Results

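Transcripts of 10 genes that write, guide or remove DNA methylation were compared between WT B cells and B cells without Whsc1, an enzyme that methylates lysine 36 of histone H3. The genes were taken by symbol: the DNA methyltransferases Dnmt1, Dnmt3a and Dnmt3b, the targeting factors Uhrf1 and Uhrf2, the dioxygenases Tet1, Tet2 and Tet3, and the glycosylases Tdg and Mbd4. They are 10 of the 47643 genes in the deposited table, and all 10 passed the filter on low values that left 13947 genes for testing, with at least 112 reads for each of them in every library.

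The groups were WT (7 libraries) and Whsc1-/- (Whsc1-KO, 6 libraries), both labelled C57BL/6. Because the knockout is lethal in embryos, the cells descend from fetal liver blood cells of WT or Whsc1-KO littermates that were injected into lethally irradiated RAG1-KO mice, hosts that make no mature lymphocytes of their own. Every group thus shares the irradiated RAG1-KO host, in which other host cells may remain. Splenic B cells were enriched by removing cells with CD43 and were cultured with 25 µg/ml lipopolysaccharide (LPS) for 48 h, which makes B cells divide and switch antibody class. RNA was measured by poly-A selected, stranded, paired-end sequencing with reads of 76 bases.

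DNA methylation in mammals sits mostly on the cytosine of CpG dinucleotides. Dnmt1 copies it onto the new strand after DNA replication and is brought to replicated DNA by Uhrf1, while Dnmt3a and Dnmt3b add methyl groups to unmethylated sites. The Tet enzymes oxidise methylcytosine, and Tdg excises some of the oxidised forms so that base excision repair can restore plain cytosine. In B cells that enter the germinal centre or are activated in culture, methylation is remodelled as the cells divide, and the proteins that carry the mark through division are made mostly in cycling cells. Dnmt3a and Dnmt3b also hold a PWWP domain that binds methylated H3 lysine 36, the residue that Whsc1 methylates.

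The libraries held 38881663 to 53019516 reads in genes in WT and 39101317 to 49443099 in Whsc1-KO. Reads of the targeted gene, Whsc1, remained in every Whsc1-KO library at 69% of the WT mean (log2 fold change -0.54, limma adjusted p = 0.00049), with no overlap between groups; gene counts do not show which part of the transcript they came from. Whsc1-KO replicates 4 to 6 stood apart from replicates 1 to 3 on the first and second principal components, which held 48.5% and 16% of the variance. On the first, WT lay at -50.4 to -27.2. Whsc1-KO replicates 1 to 3 lay there at 18.7 to 31.9 and replicates 4 to 6 at 65.1 to 71.2. On the second, the same sets lay at -2.2 to 23.6, -45.2 to -41 and 11.2 to 33.8. The summed normalized count of 8 B cell markers was 568800 to 664700 in WT, 501600 to 541100 in Whsc1-KO replicates 1 to 3 and 378200 to 392300 in replicates 4 to 6. B cell transcripts were thus plentiful in each library, and their sum was lower in Whsc1-KO. The largest part was Cd74, with a mean of 247830 in WT and 183113 in Whsc1-KO. The sum of 10 myeloid markers was 1232 to 2357, 2840 to 3255 and 12510 to 16840 in the same 3 sets, with Elane at 0 throughout, and that of 9 erythroid markers was 866 to 3324, 2577 to 3065 and 12920 to 194400. The sum of 10 T cell markers was 4017 to 6379, 4017 to 4307 and 3062 to 3377, and it mainly followed Cd2. Cd2 alone had a mean normalized count of 4859 in WT and 3534 in Whsc1-KO. Cd3e, Cd3d and Cd3g had means of 0.28, 0.73 and 0.53 in WT and 0.44, 1.32 and 6.76 in Whsc1-KO. The part of these other cells in the results below was not tested. Judged by sex-linked genes, WT replicates 1 to 5 and Whsc1-KO replicates 4 and 5 were female and the other libraries male. Within replicates 1 to 3, genotype and sex therefore cannot be told apart, and without Whsc1-KO replicates 4 to 6 all knockout libraries were male; over all 13 libraries a sex score as a covariate changed no call of the 10 genes. In bulk RNA, fewer cells of a type and less RNA per cell cannot be told apart.

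Of the 10 genes, 3 were higher in Whsc1-KO (Uhrf1, Dnmt1 and Tdg), 5 were lower (Tet1, Dnmt3a, Mbd4, Uhrf2 and Tet3) and 2 did not pass the test (Dnmt3b and Tet2), by limma on log2(normalized count + 1) with an adjusted p under 0.05. Among all genes tested, 51.8% were called, 26.1% as higher and 25.7% as lower, so being called is in itself no mark of these genes. The median log2 fold change of the 10 genes was -0.19 and that of all tested genes was -0.00. The authors' deposited table also has 3 of the 10 higher and 5 lower, beside 22.2% higher and 19.3% lower of the genes with an adjusted p in that table. A fit that omitted Whsc1-KO replicates 4 to 6 called none of the 10 higher and the same 5 lower, with 29.6% of all genes called, 14% as higher and 15.6% as lower. By limma 2 of the 10 were higher there at an unadjusted p under 0.05. The share of all genes at an unadjusted p is not given, here or below, so such counts have no background beside them. Within replicates 1 to 3, where all WT libraries were female and all Whsc1-KO libraries male, the same 5 were again lower and none higher, also at an unadjusted limma p under 0.05, beside 15.6% of all genes called, 6.79% as higher and 8.76% as lower. Within replicates 4 and later the same 3 were higher and 5 were lower, 4 of them shared with the 5 over all libraries, beside 60.1% of all genes called, 30% as higher and 30.1% as lower.

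**Figure D1:**
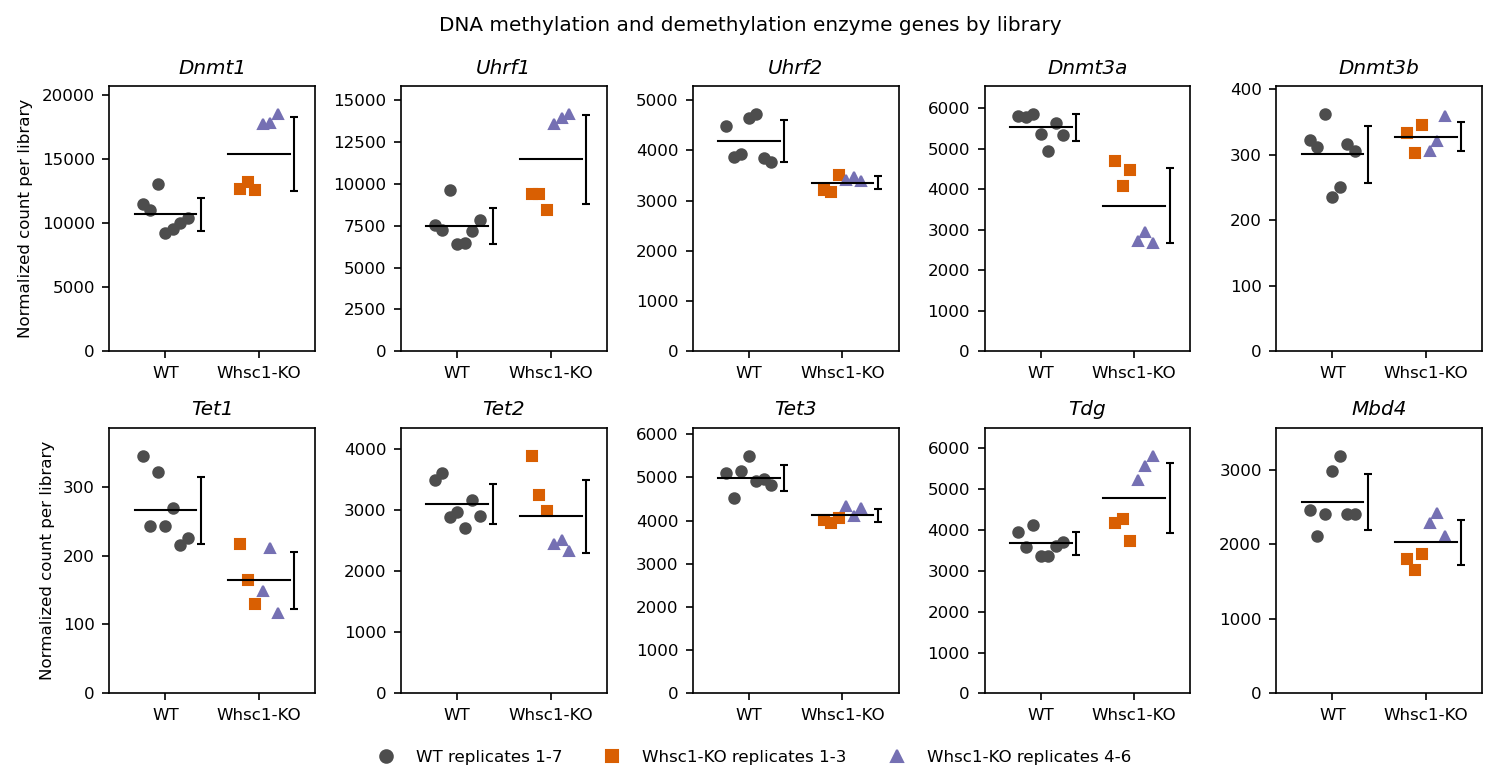
Normalized count (vertical axis, from 0) of each of the 10 genes in the 7 WT libraries (circles), Whsc1-KO replicates 1 to 3 (squares) and Whsc1-KO replicates 4 to 6 (triangles), with the group mean as a line and 1 SD as a bar. Dnmt1, Uhrf1 and Tdg are highest, and Dnmt3a is lowest, in Whsc1-KO replicates 4 to 6, while Uhrf2 and Tet3 lie below every WT library in both sets.

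Dnmt1 (chr9:20907209-20959888, minus strand, GRCm38) encodes the maintenance methyltransferase. In WT its normalized count was lowest at 9189, had a median of 10393 and was highest at 13030.1. In Whsc1-KO it was 12637, 13174 and 12560.1 in replicates 1 to 3 and 17730.0, 17792 and 18462 in replicates 4 to 6. The later 3 libraries lay above every WT library, whereas the first 3 lay around the highest WT library, replicate 3. The means were 10672 ± 1313 (SD, n = 7) in WT and 15393 ± 2870 in the knockout (SD, n = 6), and the log2 fold change was 0.52 ± 0.11 (SE; 95% interval 0.27 to 0.76; limma adjusted p = 0.0022). The log2 fold change was 0.27 without Whsc1-KO replicates 4 to 6 (limma adjusted p = 0.0516). It was 0.11 within replicates 1 to 3 of both groups and 0.88 within replicates 4 and later (limma adjusted p = 0.344 and 1e-05); the difference between those values was not tested.

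Uhrf1 (chr17:56303321-56323486, plus strand) encodes the protein that reads hemimethylated DNA and brings Dnmt1 to it. Its normalized count ran from 6405 to 9637 in WT, with a median of 7215. In Whsc1-KO it was 9358, 9365 and 8419 in replicates 1 to 3 and 13546, 13920.1 and 14128 in replicates 4 to 6. The first 3 Whsc1-KO libraries lay below WT replicate 3, the highest of WT, and the later 3 lay above all WT libraries. The means were 7469 ± 1094 (SD, n = 7) in WT and 11456 ± 2667 in the knockout (SD, n = 6), and the log2 fold change was 0.60 ± 0.14 (SE; 95% interval 0.30 to 0.89; limma adjusted p = 0.00294). Without replicates 4 to 6 of Whsc1-KO it was 0.29 (limma adjusted p = 0.068), within replicates 1 to 3 it was 0.16 (limma adjusted p = 0.34), and within replicates 4 and later it was 1.00 (limma adjusted p = 1.9e-05). Per kb of exon, the ratio of Uhrf1 to Dnmt1 was 1.13 to 1.31 in WT and 1.16 to 1.36 in Whsc1-KO, so the levels of both genes moved nearly in proportion from library to library.

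Promoter windows of 250 bases before to 50 after each annotated start were read from RefSeq (GRCm38.p6), which holds 15 windows for the 10 genes. The E2F family binds sites in promoters of replication genes, and the words TTTCGCGC, TTTCCCGC and TTTGGCGC, searched on both strands, occur in 1.8% of the 32851 windows of all genes. Among the 10 genes they occur in 1 window of Dnmt1 and 1 of Uhrf1 and in no other. Of 20 S phase replication genes with a window, 8 hold one (40.0%), against 2.1% of 27025 genes. The matches are shown because both genes that hold them varied with the replication genes described below, as did Tdg, which holds none. A match describes the letters only, and a window without one says nothing of the factor. The Dnmt1 sites lie inside the gene's annotated span and exons, from 219 bases before and 34 bases after a RefSeq start. They are given with 30 bases each, 5′ to 3′ on the gene's strand, with the E2F word in capitals (on the opposite strand in the first):
Dnmt1 chr9:20952824-20952853, minus strand: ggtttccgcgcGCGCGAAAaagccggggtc
Dnmt1 chr9:20952574-20952603, minus strand: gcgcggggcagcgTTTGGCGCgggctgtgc
The second Uhrf1 window lies inside the annotated gene span, and its 250 bases before the start, which are outside annotated exons, hold the E2F word TTTCGCGC and 2 copies of CCAAT, all in capitals. CCAAT, the box bound by NF-Y and searched on both strands (ATTGG on the other), is in 37.4% of all windows and in 7 of the 15 windows of these genes.
Uhrf1 chr17:56304063-56304312, plus strand: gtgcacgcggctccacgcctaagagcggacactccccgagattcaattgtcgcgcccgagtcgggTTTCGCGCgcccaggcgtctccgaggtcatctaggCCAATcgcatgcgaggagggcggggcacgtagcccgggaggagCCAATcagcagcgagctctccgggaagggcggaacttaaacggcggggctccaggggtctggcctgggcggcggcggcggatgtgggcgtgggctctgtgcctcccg

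Uhrf2 (chr19:30030513-30093722, plus strand), the paralog of Uhrf1, moved the other way. The WT libraries ran from a normalized count of 3773 through a median of 3925 to 4713, and the Whsc1-KO libraries from 3178 through 3395 to 3512. The groups did not overlap, and Whsc1-KO replicates 1 to 3 (3178 to 3512) and 4 to 6 (3382 to 3469) covered the same range. The means were 4178 ± 415 (SD, n = 7) in WT and 3359 ± 138 in the knockout (SD, n = 6), and the log2 fold change was -0.31 ± 0.06 (SE; 95% interval -0.45 to -0.17; limma adjusted p = 0.00141). It was -0.34 without Whsc1-KO replicates 4 to 6 (limma adjusted p = 0.013). The Uhrf1 to Uhrf2 ratio per kb was 3.66 ± 0.777 (SD, n = 7) for WT against 6.87 ± 1.5 (SD, n = 6) for Whsc1-KO, and the ranges overlapped narrowly, with the lowest Whsc1-KO library at 4.84 and the highest WT library at 4.95. Non-overlapping ranges were found for 3 of the 10 genes, Uhrf2, Dnmt3a and Tet3, all lower in Whsc1-KO, and for 10.2% of all genes in that direction and 9.04% in the other.

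Dnmt3a (chr12:3806007-3914443, plus strand) encodes the de novo methyltransferase with the higher level here. In WT the lowest, median and highest normalized counts were 4937, 5634 and 5842. In Whsc1-KO it was 4694, 4071 and 4472 in replicates 1 to 3 and 2719, 2935 and 2669 in replicates 4 to 6. Every Whsc1-KO library lay below every WT library, and the later 3 lay far below the first 3. The means were 5526 ± 336 (SD, n = 7) and 3593 ± 924 (SD, n = 6), or 65.0% of WT, and the log2 fold change was -0.66 ± 0.13 (SE; 95% interval -0.94 to -0.38; limma adjusted p = 0.00118). It was -0.32 without Whsc1-KO replicates 4 to 6 (limma adjusted p = 0.0053), within replicates 1 to 3 it was -0.40 (limma adjusted p = 0.0099) and within replicates 4 and later it was -0.94 (limma adjusted p = 1.1e-05). The lower level was thus present in both sets of Whsc1-KO libraries and larger in the set with the lowest B cell marker sums. The gene has several promoters, and gene counts do not separate its isoforms. The third of its 3 RefSeq windows is shown because it is the only Dnmt3a window with a searched motif, the E-box CACGTG, in capitals, which 7.2% of all windows hold on either strand.
Dnmt3a chr12:3891494-3891727, plus strand: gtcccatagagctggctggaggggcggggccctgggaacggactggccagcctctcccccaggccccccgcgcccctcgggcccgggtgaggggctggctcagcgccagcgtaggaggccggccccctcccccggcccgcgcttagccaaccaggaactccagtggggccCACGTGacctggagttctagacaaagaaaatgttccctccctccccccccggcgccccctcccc

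Dnmt3b (chr2:153649450-153687730, plus strand), the other de novo enzyme, had few reads and did not pass the test. Its normalized count ran from 235 to 361 in WT, with a median of 311, and from 303 to 358 in Whsc1-KO, with a median of 327. The ranges overlapped throughout. The means were 300.3 ± 43.6 (SD, n = 7) and 327 ± 21.9 (SD, n = 6), with a log2 fold change of 0.14 and a 95% interval of -0.09 to 0.36 (limma adjusted p = 0.288). The lower end of that interval lies above the Dnmt3a value.

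The makeup of the methyltransferase transcripts, as shares of the sum per kb of exon, differed between genotypes. Dnmt1 made up 77.2% to 80.7% of the 3 in WT, 83.2% to 85.5% in Whsc1-KO replicates 1 to 3 and 91.0% to 91.6% in replicates 4 to 6. Dnmt3a made up 16.0% to 19.9%, 11.7% to 13.7% and 5.87% to 6.65% in the same sets. Neither share overlapped between genotypes, in either set of Whsc1-KO libraries. The Dnmt1 to Dnmt3a ratio per kb was 4.35 ± 0.372 (SD, n = 7) in WT against 10.6 ± 4.49 (SD, n = 6) in the knockout, running from 6.07 to 7.30 in the first 3 Whsc1-KO libraries and from 13.7 to 15.6 in the last 3. Dnmt3b made up 2.86% to 3.52% in WT and 2.28% to 3.31% in Whsc1-KO, which overlapped.

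**Figure D2:**
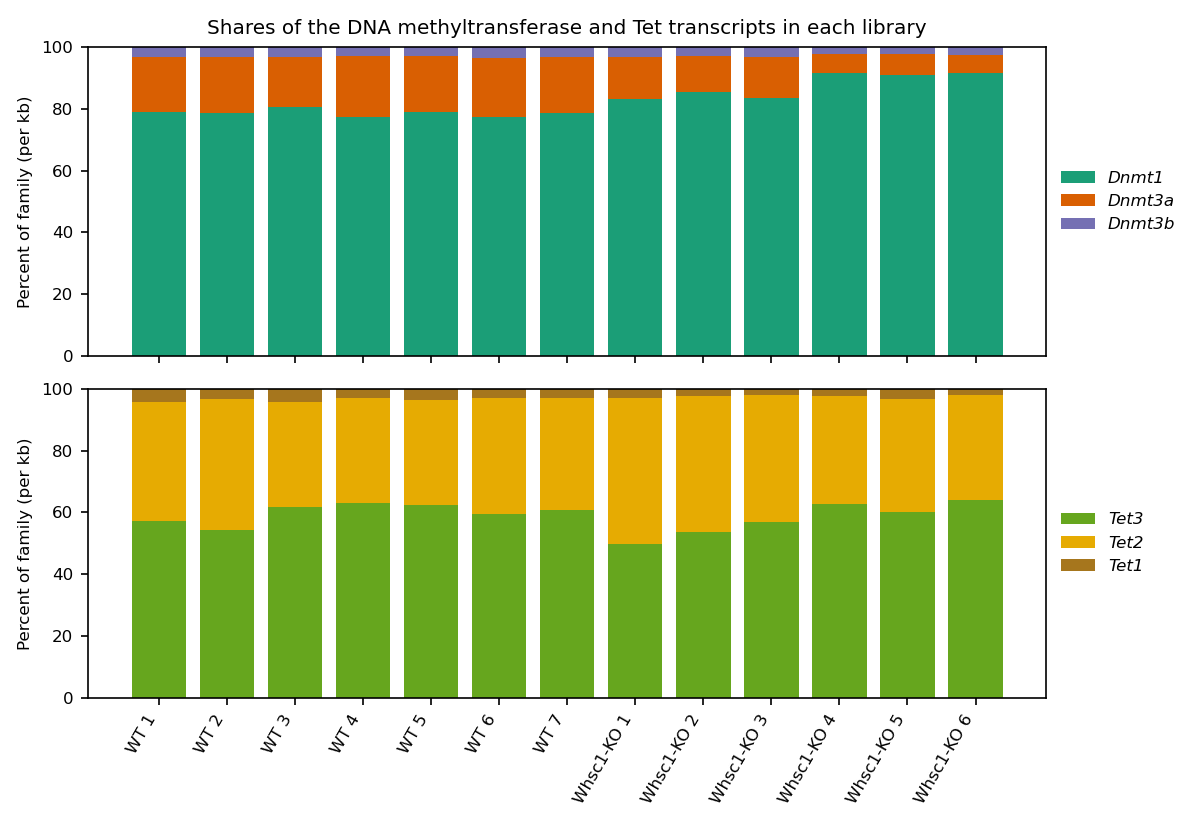
Share of each gene (percent of the summed normalized count per kb of exon, from 0 to 100) among the 3 DNA methyltransferase genes (top) and the 3 Tet genes (bottom), 1 bar per library. The Dnmt1 share is 77.2% to 80.7% in WT and 83.2% to 91.6% in Whsc1-KO, whereas the Tet3 share of 54.2% to 63.2% in WT overlaps the 49.7% to 63.9% in Whsc1-KO.

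Tet3 (chr6:83362373-83459084, minus strand), the Tet gene with the highest level here, had the smallest standard error of the 10 log2 fold changes. Its normalized count was 4517, 4960.0 and 5484 at the lowest, the median and the highest in WT and 3941, 4081 and 4326 in Whsc1-KO. The groups did not overlap, and replicates 1 to 3 (3941 to 4055) and 4 to 6 (4106 to 4326) of Whsc1-KO lay close together. The means were 4992 ± 302 (SD, n = 7) in WT and 4123 ± 156 in the knockout (SD, n = 6), and the log2 fold change was -0.27 ± 0.05 (SE; 95% interval -0.38 to -0.17; limma adjusted p = 0.000539). The value was -0.32 without Whsc1-KO replicates 4 to 6, within replicates 1 to 3 it was -0.30 and within replicates 4 and later it was -0.25 (limma adjusted p = 0.0034, 0.031 and 0.0065).

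Tet2 (chr3:133463679-133545139, minus strand), an enzyme often mutated in blood cancers, did not pass the test over all libraries. Its normalized count ran from 2709 to 3599 in WT, with a median of 2962. In Whsc1-KO it was 3876, 3240 and 2980.0 in replicates 1 to 3 and 2440, 2505 and 2329 in replicates 4 to 6. The first set lay within or above the WT range and the second below it. The means were 3099 ± 332 (SD, n = 7) and 2895 ± 594 (SD, n = 6), with a log2 fold change of -0.12 and a 95% interval of -0.36 to 0.13 (limma adjusted p = 0.412). The value was 0.12 without Whsc1-KO replicates 4 to 6 (limma adjusted p = 0.41), 0.02 within replicates 1 to 3 (limma adjusted p = 0.938) and -0.27 within replicates 4 and later (limma adjusted p = 0.00626). With library weights, a fit that called 67.0% of all genes, 33.4% as higher and 33.7% as lower, Tet2 was called at -0.28 (limma adjusted p = 0.0115) and Mbd4, described below, was not, at -0.18 (limma adjusted p = 0.0823).

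Tet1 (chr10:62804570-62908996, minus strand), the family member best known from embryonic stem cells and germ cells, had the lowest level per kb of the 10 genes and, over all libraries as deposited, the largest log2 fold change in size. With quantile scaling, library weights or a sex score as a covariate the values of Dnmt3a (-0.67, -0.89 and -0.73) and Uhrf1 (0.62, 0.8 and 0.66) were larger in size than those of Tet1 (-0.61, -0.71 and -0.61). So were both without Whsc1-KO replicate 3, and Dnmt3a without WT replicate 1. Within replicates 4 and later Uhrf1 (1.00), Dnmt3a (-0.94), Dnmt1 (0.88) and Tdg (0.66) were larger in size than Tet1. The lowest, median and highest normalized counts were 216, 243 and 344 in WT and 116, 156 and 216 in Whsc1-KO. The ranges met at a single point, where Whsc1-KO replicate 1 lay just above WT replicate 6. The means were 266 ± 48.9 (SD, n = 7) in WT and 164 ± 41.5 in the knockout (SD, n = 6), and the log2 fold change was -0.71 ± 0.17 (SE; 95% interval -1.06 to -0.35; limma adjusted p = 0.00309). It was -0.65 without Whsc1-KO replicates 4 to 6, -0.84 within replicates 1 to 3 and -0.62 within replicates 4 and later (limma adjusted p = 0.023, 0.039 and 0.024). Tet3, Tet2 and Tet1 made up 59.9%, 36.7% and 3.43% of the Tet transcripts per kb in WT and 57.8%, 39.7% and 2.47% in Whsc1-KO, and the ranges of each share overlapped.

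Tdg (chr10:82629828-82650799, plus strand) encodes the glycosylase that removes thymine from G:T mismatches and the oxidised cytosines made by the Tet enzymes. WT libraries had normalized counts between 3359 and 4113, with a median of 3613. In Whsc1-KO it was 4158, 4255 and 3716 in replicates 1 to 3 and 5226, 5571 and 5794 in replicates 4 to 6. The first set overlapped WT at its lowest library and the second lay above all WT libraries, as for Dnmt1 and Uhrf1. The means were 3666 ± 281 (SD, n = 7) in WT and 4786 ± 854 in the knockout (SD, n = 6), and the log2 fold change was 0.37 ± 0.10 (SE; 95% interval 0.15 to 0.58; limma adjusted p = 0.00739). It was 0.14 without Whsc1-KO replicates 4 to 6, 0.06 within replicates 1 to 3 and 0.66 within replicates 4 and later (limma adjusted p = 0.169, 0.647 and 4.4e-05). The Tdg pseudogenes Gm9855 and Tdg-ps had mean normalized counts of 5.99 and 0.76, so reads assigned to these copies are few beside those of Tdg. The Tdg promoter is shown as the counterpart of the Dnmt1 and Uhrf1 windows: it holds CCAAT on the opposite strand (ATTGG) and the E-box CACGTG, in capitals, and none of the 3 E2F words.
Tdg chr10:82629588-82629827, plus strand: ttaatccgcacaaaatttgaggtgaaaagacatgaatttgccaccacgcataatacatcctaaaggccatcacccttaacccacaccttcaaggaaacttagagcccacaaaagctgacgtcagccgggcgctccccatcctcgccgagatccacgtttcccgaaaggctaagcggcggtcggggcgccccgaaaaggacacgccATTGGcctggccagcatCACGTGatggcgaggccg

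Mbd4 (chr6:115840697-115853371, minus strand) encodes the other glycosylase for G:T mismatches, which binds methylated CpG. Normalized counts of WT libraries lay between 2115 and 3181, with a median of 2414. In Whsc1-KO it was 1807, 1655 and 1867 in replicates 1 to 3 and 2290, 2424 and 2114 in replicates 4 to 6. Here the first set lay below all WT libraries and the second within or at the edge of the WT range, the opposite order to Dnmt3a. The means were 2568 ± 374 (SD, n = 7) in WT and 2026 ± 299 in the knockout (SD, n = 6), and the log2 fold change was -0.34 ± 0.11 (SE; 95% interval -0.57 to -0.11; limma adjusted p = 0.0162). It was -0.52 without Whsc1-KO replicates 4 to 6 (limma adjusted p = 0.0067), -0.39 within replicates 1 to 3 (limma adjusted p = 0.023) and -0.26 within replicates 4 and later (limma adjusted p = 0.068). The antisense gene Gm44206, which shares 264 bases of exon with Mbd4, had a mean normalized count of 83.8 in WT and 206 in Whsc1-KO; whether the authors' counting used strand is not given in the sources used here. The Tdg to Mbd4 ratio per kb was 1.04 to 1.68 in WT and 1.96 to 2.69 in Whsc1-KO, with no overlap, and it was 1.96 to 2.53 in replicates 1 to 3 and 2.24 to 2.69 in replicates 4 to 6.

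**Figure D3:**
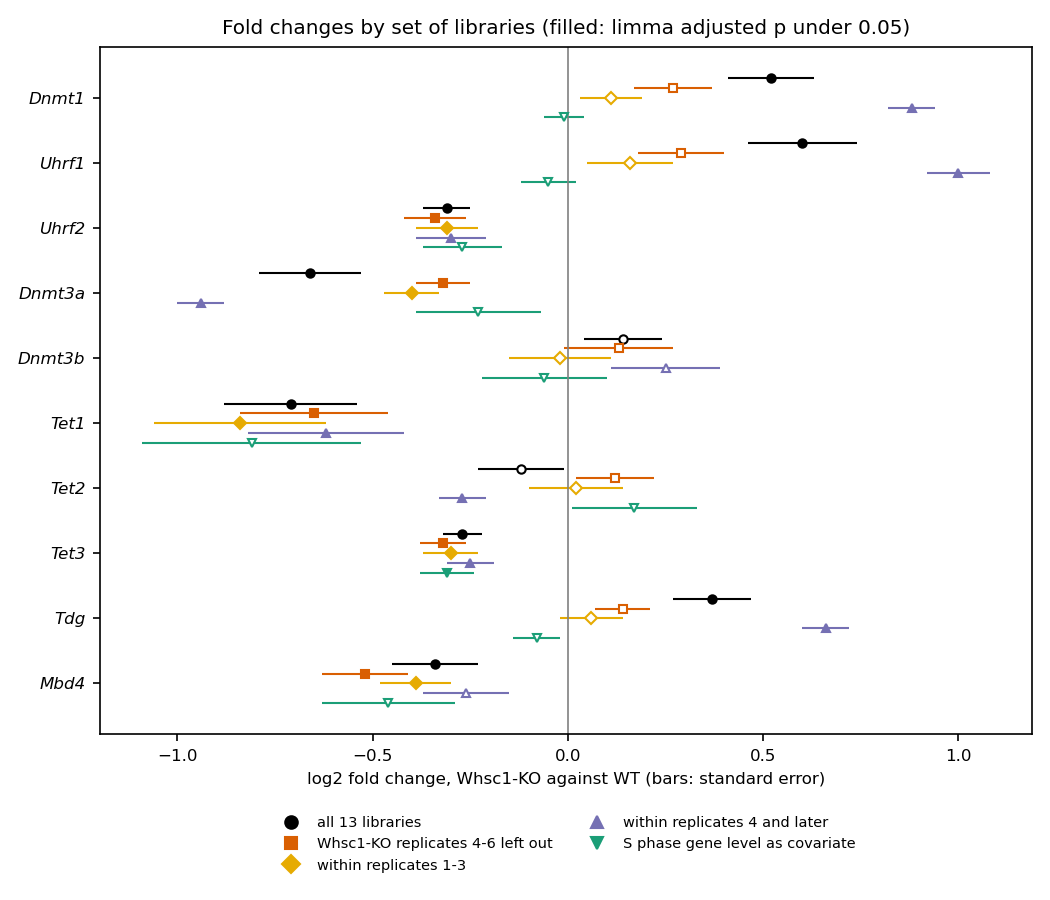
Log2 fold change of Whsc1-KO against WT (horizontal axis, bars 1 SE) for each of the 10 genes over all 13 libraries, without Whsc1-KO replicates 4 to 6, within replicates 1 to 3, within replicates 4 and later, and with the level of S phase replication genes as a covariate; filled symbols have a limma adjusted p under 0.05. Dnmt3a, Uhrf2, Tet1 and Tet3 lie below 0 and are called in each set of libraries, whereas Dnmt1 runs from 0.11 to 0.88 and Uhrf1 from 0.16 to 1.00 between the early and the late replicates. With the covariate only Tet3 is called.

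Levels were compared per kb of all annotated exons of a gene, a length that may exceed the transcript in use. On this scale Uhrf1 and Dnmt1 had the highest levels of the 10 genes in WT, at 1754 ± 257 and 1447 ± 178 normalized counts per kb (SD, n = 7), above 91.5% and 89.7% of tested genes. Tdg followed at 682, then Uhrf2 and Mbd4 at 486 each, Dnmt3a at 332, Tet3 at 299, Tet2 at 184, Dnmt3b at 58.8 and Tet1 at 17.2, the last above 14.9% of tested genes. Neighbours in this order whose ranges overlapped in WT were Uhrf1 and Dnmt1, Uhrf2 and Mbd4, and Dnmt3a and Tet3. In Whsc1-KO the order of the means was the same but for Tet3, at 247, which stood before Dnmt3a, at 216. Among the Whsc1-KO libraries, Dnmt3a was below Tet3 only in replicates 4 to 6 (160.3 to 176.4 against 246.0 to 259.1). In replicates 1 to 3 it was above Tet3 (244.6 to 282.0 against 236.0 to 242.9). The Dnmt3a range in Whsc1-KO overlapped those of Tet3 and Tet2.

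**Figure D4:**
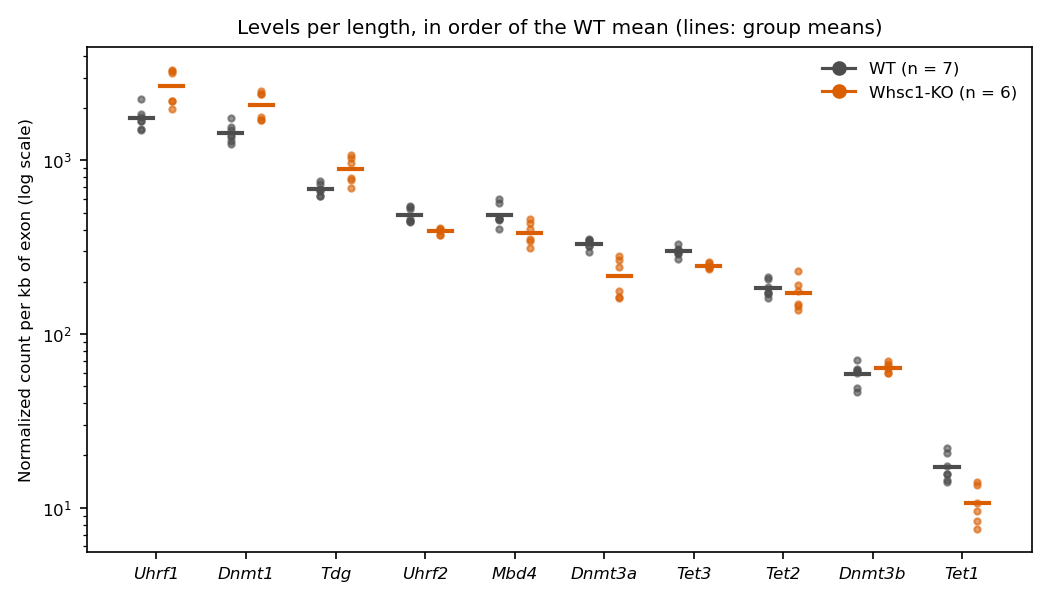
Normalized count per kb of exon (log axis) of the 10 genes in each library, by genotype, ordered by the WT mean. Uhrf1 and Dnmt1 lead at 1754 and 1447 in WT, and Tet1 is last at 17.2. In Whsc1-KO the mean of Dnmt3a is below that of Tet3, but the ranges of these genes overlap.

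Dnmt1 and Uhrf1 are known as genes of cycling cells, so the 25 S phase replication genes on a list of Mcm, Gins, Cdc45 and nucleotide supply genes were set beside them. In Whsc1-KO 23 of them were higher and none lower, their median log2 fold change was 0.63, and none was lower at an unadjusted limma p under 0.05 or by edgeR or DESeq2. Examples are Rrm2, a ribonucleotide reductase subunit (log2 fold change 1.17), the helicase subunits Mcm5 (0.93) and Cdc45 (0.92), and Gins1 (0.79). With Whsc1-KO replicates 4 to 6 left aside, 12 of the 25 were higher, and 17 were at an unadjusted limma p under 0.05. The number higher was 1 within replicates 1 to 3, where 7 were at an unadjusted limma p under 0.05. None was lower in either fit, also at that unadjusted p. Of all tested genes, 26.1% were called higher over all libraries, 14% without Whsc1-KO replicates 4 to 6 and 6.79% within replicates 1 to 3. The mean log2 level of the list was 11.03 to 11.65 in WT, 11.58 to 11.74 in Whsc1-KO replicates 1 to 3 and 12.22 to 12.31 in replicates 4 to 6, the same order of sets as for Dnmt1, Uhrf1 and Tdg.

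Measured against that mean, the log2 difference of Dnmt1 was 2.04 ± 0.04 (SD, n = 7) in WT against 1.91 ± 0.08 (SD, n = 6) in the knockout, and that of Uhrf1 was 1.52 ± 0.09 and 1.47 ± 0.02; both overlapped between genotypes. That of Tdg was 0.51 ± 0.11 and 0.23 ± 0.08, with no overlap. That of Dnmt3a was 1.1 ± 0.15 and -0.21 ± 0.70, with no overlap. Such a difference presumes a gene that changes as much as the list's mean. Within WT that of Tdg was 0.68 in replicate 4, with the lowest list mean, and 0.35 in replicate 3, with the highest. The list mean was higher in Whsc1-KO, so a lack of overlap cannot be told apart from a dependence on that mean. In a limma fit with the list's mean as a covariate, the log2 fold changes of Dnmt1, Uhrf1 and Tdg were -0.01, -0.05 and -0.08 (adjusted p = 0.895, 0.711 and 0.451). In that fit Tet3 alone of the 10 was called, at -0.31 (limma adjusted p = 0.022), beside 9.17% of all genes, 5.48% called lower and 3.69% higher. Dnmt3a was at -0.23, Uhrf2 at -0.27, Tet1 at -0.81 and Mbd4 at -0.46 (limma adjusted p = 0.416, 0.122, 0.0835 and 0.118). None of the 10 was higher at an unadjusted limma p under 0.05, and 4 were lower. The shares of all genes above are at an adjusted p, so they are no background for these counts. The covariate itself differs between genotypes, with ranges that meet only between 11.58 and 11.65, so this limma fit has little power to separate genotype from the replication gene level.

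**Figure D5:**
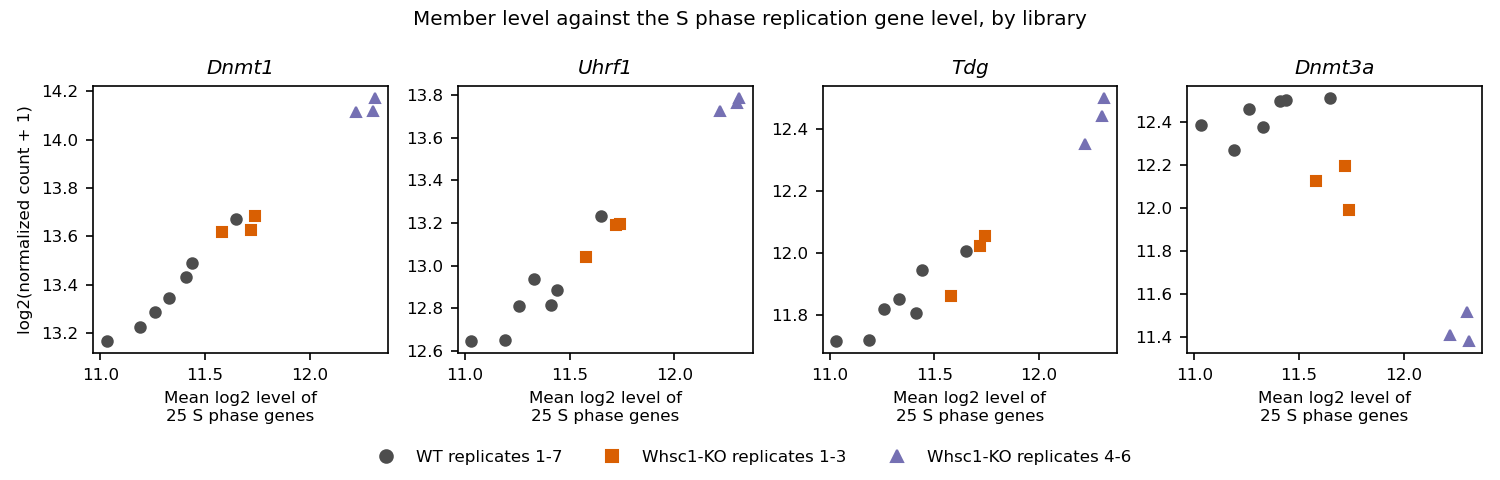
Log2(normalized count + 1) of Dnmt1, Uhrf1, Tdg and Dnmt3a (vertical axis) against the mean log2 level of 25 S phase replication genes (horizontal axis), 1 point per library. Dnmt1, Uhrf1 and Tdg are higher in libraries with more of the replication genes in both genotypes, while the Whsc1-KO libraries lie below the WT libraries for Dnmt3a.

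Genes most like each of the 10 were ranked by Pearson's r over the 13 libraries after each genotype's mean was taken out, among 10050 genes; this describes how libraries of 1 genotype vary, which the Whsc1-KO libraries do mainly as 2 sets, and carries no test. Dnmt1 was most like Exo1 (r = 0.989), Fignl1 (0.983) and Aqr (0.982), and Uhrf1 was most like Mcm4 (0.985), Spdl1 (0.983) and Wdhd1 (0.981). Exo1 is an exonuclease of DNA repair and Mcm4 a subunit of the replicative helicase. For Tdg, r was 0.978 with Uqcr10 and 0.972 with Metap2. Dnmt3a was most like Notch2 (0.986), a receptor needed for marginal zone B cells, then Nek9 (0.981) and Immp2l (0.974). Tet2 was most like the ribosomal protein genes Rpl30 (0.971) and Rps23 (0.969). The closest genes to Uhrf2 (Oxr1, 0.928), Mbd4 (Clint1, 0.947), Dnmt3b (Cnbp, 0.923), Tet1 (Cox6b2, 0.853) and Tet3 (Tecpr2, 0.838) were less alike. Between the 10 genes themselves, r was 0.97 for Dnmt1 and Uhrf1, 0.96 for Uhrf1 and Tdg, 0.95 for Dnmt1 and Tdg and 0.87 for Dnmt3a and Tet2, and it was -0.68 for Dnmt1 and Dnmt3a.

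The counts of the other gene lists below are to be read against the 26.1% of all tested genes called higher and 25.7% called lower, and against 14% and 15.6% without Whsc1-KO replicates 4 to 6. For a list of methyl-CpG readers and their relatives, for CXXC proteins and for base excision repair they were near or below those shares. Over all libraries the number of methyl donor cycle genes called higher was also near its share. The reader list includes genes taken for their methyl-CpG binding domain family, and being listed does not show that a protein binds methylated CpG. Among 9 tested genes of the reader list 1 was higher and 3 were lower, and their median log2 fold change was -0.08. Without Whsc1-KO replicates 4 to 6, 1 was higher and 2 were lower. Mbd5, of the methyl-CpG binding domain family, was the most changed. Its normalized count was 1409 to 1614 in WT and 617 to 801 in Whsc1-KO, with no overlap and a log2 fold change of -1.13 (limma adjusted p = 1.13e-07), and it was -1.01 without Whsc1-KO replicates 4 to 6. Zbtb4 had a log2 fold change of -0.64 and Mbd3, a subunit of the NuRD complex, of 0.28 (limma adjusted p = 0.00685 and 0.00181). Without those 3 libraries Zbtb4 had a value of -0.23 (limma adjusted p = 0.15).

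Among genes that work with the methyltransferases, 14 of 18 listed were tested, of which 6 rose and 3 fell (median log2 fold change 0.20). Trim28, the corepressor of zinc finger proteins, had a log2 fold change of 0.39, the H3 lysine 9 methyltransferases Suv39h1 and Ehmt2 had 0.52 and 0.20, and Lig1, the ligase whose methylated tail Uhrf1 binds, had 0.56 (limma adjusted p = 0.000635, 0.00152, 0.00184 and 0.0055). With the S phase gene level as a covariate the 4 values were 0.17, 0.03, 0.23 and -0.1 (limma adjusted p = 0.242, 0.807, 0.0424 and 0.507). Lig1 was at 0.24 without Whsc1-KO replicates 4 to 6 (limma adjusted p = 0.141). Leaving aside Whsc1-KO replicates 4 to 6, 3 rose and none fell, with none lower at an unadjusted limma p under 0.05. Of the 6 tested CXXC proteins, which bind unmethylated CpG as Tet1, Tet3 and Dnmt1 do, 1 was higher (Cxxc1, 0.33) and 2 lower (Kmt2a, -0.55, and Kdm2a, -0.20), and Kdm2b had a log2 fold change of 0.04 (limma adjusted p = 0.534). Without those 3 libraries none of the CXXC genes was higher by adjusted p, 1 was at an unadjusted limma p under 0.05, and Kmt2a alone was lower.

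Base excision repair completes demethylation after Tdg. Of its 18 genes, 6 rose and 3 fell (median log2 fold change 0.09). The flap endonuclease Fen1 had a log2 fold change of 0.65, the 8-oxoguanine glycosylase Ogg1 of 0.44, Parp2 of 0.29 and Parp1, the main poly(ADP-ribose) polymerase, of -0.33 (limma adjusted p = 0.000825, 0.000928, 0.00463 and 0.000489). Only 2 rose and 1 fell once Whsc1-KO replicates 4 to 6 were omitted. With the S phase gene level as a covariate Fen1, Ogg1, Parp2 and Parp1 were at 0.12, 0.28, 0.05 and -0.31 (limma adjusted p = 0.464, 0.188, 0.775 and 0.0489).

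The methyl donor of Dnmt enzymes, S-adenosylmethionine, is made from methionine with methyl groups from the folate cycle. Of 13 genes of this cycle, 4 rose and none fell (median log2 fold change 0.13). By limma 1 was lower at an unadjusted p under 0.05, and none was by the adjusted p of edgeR or DESeq2. The 4 were Shmt1 (log2 fold change 0.91), Mthfd1 (0.76), Ahcy, which clears the product S-adenosylhomocysteine (0.49), and Mtr, methionine synthase (0.43). The number lower was 1 without Whsc1-KO replicate 1 and 2 without Whsc1-KO replicate 3, and also 2 within replicates 4 and later. All 4 were also higher without Whsc1-KO replicates 4 to 6, and none was within replicates 1 to 3, where 2 were at an unadjusted limma p under 0.05. With the S phase gene level as a covariate Shmt1, Mthfd1, Ahcy and Mtr were at 0.11, 0.09, 0.07 and 0.07 (limma adjusted p = 0.584, 0.561, 0.575 and 0.541). The Tet enzymes use 2-oxoglutarate, and of 15 genes of its metabolism and of Tet cofactors 9 rose and 2 fell (median log2 fold change 0.19). The number lower was 1 by edgeR and in 8 of 13 fits that left out a library (WT replicates 2, 3, 4, 6 and 7 and Whsc1-KO replicates 4, 5 and 6). Of the 2 that fell over all libraries, Ogt had a log2 fold change of -0.565 (limma adjusted p = 0.000994). Idh1, the other, was near the threshold (limma adjusted p = 0.0483). Genes that rose include Idh2, which makes 2-oxoglutarate in mitochondria (0.80), Idh3a (0.60), and the succinate dehydrogenase subunits Sdhb (0.55) and Sdhd (0.50). The counts were 4 and 1 without Whsc1-KO replicates 4 to 6. With the S phase gene level as a covariate Idh2, Idh3a, Sdhb and Sdhd were at 0.34, 0.06, 0.12 and 0.12 (limma adjusted p = 0.175, 0.559, 0.262 and 0.295).

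Germline genes on a further list are known to be kept silent by promoter DNA methylation in body tissues. Of 25 such genes 5 were tested; none of these was higher and 4 were lower in Whsc1-KO, 2 of which passed the filter through WT. The other 20 stayed under the filter, including 6 that had no reads at all, and none had a mean normalized count above 2.53 in Whsc1-KO. None of the 5 was higher, also at an unadjusted limma p under 0.05 and by edgeR and DESeq2. The mean normalized count of Brdt was 96.9 ± 24.4 (SD, n = 7) in WT against 36.8 ± 18.3 (SD, n = 6) in the knockout. Stag3 was at 138 ± 87.6 against 43.6 ± 15.3 and Piwil2 at 109.8 ± 6.95 against 133 ± 40.9. Brdt and Stag3 had log2 fold changes of -1.46 and -1.51 (limma adjusted p = 0.000906 and 0.004), while Piwil2 was not called. Tdrkh (75.4 and 8.18) and Ddx4 (37.8 and 7.77) passed the filter through WT libraries, so that a lower value was built into their passing. Tex11, untested and named after its values were seen, had 296 reads over the WT libraries, where replicate 2 was highest at a normalized count of 195, and 0 over the Whsc1-KO libraries. Methylation of DNA was not measured in these libraries.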

How the data were processed

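RNA was measured in 7 WT and 6 Whsc1-KO libraries. The authors deposited normalized counts per gene, a signal in which gene counts were divided by 1 size factor per library (dividing by a constant gave whole reads, within 0.05, for 100% of the entries). They also deposited a table with a log2 fold change and a p-value per gene. Tools named, without roles, per the submitters' processing notes: DESeq2 1.10.1, STAR 2.5.1b, RSEM 1.2.28; builds are mm9 and GRCm38.

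The test was limma 3.58.1 (R 4.3.3) with a mean-variance trend on log2(normalized count + 1), two-sided, for the 13947 genes with 10 or more in at least 6 libraries, with Benjamini-Hochberg adjustment over all of them and a threshold of 0.05. Fold changes on this scale understate the change of genes with few reads. The series' design text calls the libraries independent biological replicates. Alternatives were DESeq2 1.42.0 and edgeR 4.0.16 on recovered whole reads, other scalings, pseudocounts, covariates, library weights, a replicate block and sets of libraries. The members, gene lists, sets of libraries and tests were chosen with earlier results of these data known. All 10 members are named, and from each other list up to 4 genes with the smallest adjusted p. Ogt, Idh1, Piwil2 and Tex11 are named besides. Some genes that these rules give are not reported here. The 3 most alike genes per member were ranked among genes whose mean reached 100 in either genotype. In simulated counts for these 13947 genes and 7 against 6 libraries, with 50 genes changed at each fold, limma called 14% of genes changed 1.25-fold, 50% at 1.5-fold, 78% at 2-fold and 96% at 4-fold, with 4.03% of its calls false. Genes were drawn independently there, without sets of Whsc1-KO libraries or a sex difference, whereas 51.8% of genes were called in the data. These shares therefore need not hold for the data.

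Coordinates, exon lengths and overlaps come from GENCODE M21 (GRCm38), which held 47224 of 47643 identifiers (99.1%). Promoter windows come from RefSeq (GRCm38.p6), 1 or more for 10 of 10 members. Per kb values divide by the length of all annotated exons of a gene, which may exceed the transcript in use. Tables were made with Python 3.11.15, pandas 2.3.3, numpy 2.4.6, scipy 1.17.1 and matplotlib 3.10.9.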

Additional observations from a re-analysis of the deposited data

How the results depend on the processing

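Of 270 values of the 10 genes under 27 alternatives, 248 kept their direction and their side of the threshold, 12 lost and 2 gained a call, and 8 reversed. The other pseudocounts, no filter, TMM or quantile scaling, edgeR, DESeq2 and a sex score changed no call of the 10. With the S phase gene level as a covariate, 0 of the 10 were higher and 1 lower, and 515 and 764 of all genes; Dnmt1 (-0.015), Uhrf1 (-0.047), Tdg (-0.08), Dnmt3b (-0.058) and Tet2 (0.169) reversed. Without Whsc1-KO replicates 4 to 6, 0 of the 10 were higher, and 1947 genes higher and 2177 lower, with Tet2 at 0.117. Within replicates 1 to 3, 0 of the 10 were higher, and 947 genes higher and 1222 lower, with Dnmt3b at -0.021 and Tet2 at 0.016. Over all libraries 3636 and 3588 were called; the last 2 settings use fewer samples, and the cause was otherwise not tested. With library weights Tet2 was called at -0.28 (limma adjusted p = 0.0115) and Mbd4 was not, at -0.18 (limma adjusted p = 0.0823). Leaving out each library in turn kept 3 higher and 5 lower of the 10, with 3135 to 3776 genes higher and 3148 to 3723 lower. The counts of the other gene lists moved by over 1.5 times in 57 cases and by less in 375.

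Replicate numbers did not pair the libraries: the correlation of deviations ran from -0.11 to 0.21 and 0 of 6 numbers were closest to their own. With a replicate block over replicates 1 to 6 the calls of the 10 genes stood at 3 higher and 5 lower. The limits are those of 2 sets of Whsc1-KO libraries that differ in marker genes of other cells, an unstated strand setting in the counting, and gene-level counts that join isoforms.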
